A study of Mus musculus with 18 samples.

Results

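The phagocyte NADPH oxidase was followed through 5 genes of its complex, Cybb, Cyba, Ncf1, Ncf4 and Rac2, which were picked by symbol from the 54838 genes of the deposited count table. Each symbol matched 1 Ensembl identifier, and all 5 passed the filter on low counts. Not every subunit of the complex is analysed here. RNA was sequenced from wild-type C57BL/6 mouse cells of 3 kinds, whose ages the labels do not give. LY6G and LY6C cells are 2 sorts of myeloid-derived suppressor cells, or MDSC, which are immature cells of the myeloid line known for restraining T cells. Both came from bone marrow differentiated in culture for 5 days and were sorted as CD11b-high cells. The LY6G sort took cells with much Ly6G and a middling amount of Ly6C, and the LY6C sort took cells with much Ly6C and no Ly6G. The sorted cells were plated again and harvested a day later after cycloheximide, a drug that freezes ribosomes on mRNA. Bone marrow (BM) was flushed from femurs of 3 mice, its red cells were lysed, and it was neither cultured nor sorted. Each kind of cell gave polysomal RNA, the gradient fractions in which an mRNA carries several ribosomes, and total RNA. The 6 groups held 3 libraries each, numbered 2, 3 and 6 in the sorted cells and 1, 2 and 3 in BM, and the design text calls the replicates independent.

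The oxidase moves electrons from NADPH across a membrane onto oxygen and so makes superoxide, which phagocytes use against microbes. Its membrane core is a pair of proteins, gp91phox (Cybb), which carries the electrons, and p22phox (Cyba), which stabilises it and docks the cytosolic subunits. On activation the organizer p47phox (Ncf1) and the adaptor p40phox (Ncf4) move to the membrane from the cytosol, and the small GTPase Rac2 joins them. People who lack a subunit develop chronic granulomatous disease, and superoxide made by this oxidase is known as a means by which MDSC restrain T cells.

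Library totals ran from 8559897 to 26225431 counts, but the share of counts on protein-coding genes differed widely between cells. It was 37.3% to 94.6% in sorted libraries and 0.232% to 3.71% in BM libraries, where mitochondrial ribosomal RNA took 31.0% to 65.8%. The lowest shares among sorted cells were those of LY6C total RNA 3, at 37.3%, and LY6C total RNA 6, at 54.5%. Levels are given as CPM, counts scaled to the size of the library with TMM factors. A level of 1 CPM stood for 18.1 to 110 counts in sorted libraries. In BM it stood for 1.73 to 3.51 counts in polysomal libraries and for 0.473 to 0.611 counts in total libraries. BM total values of the oxidase genes therefore rest on few reads, between 1 and 23 counts per gene and library.

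Per kilobase of exon, Cyba had the highest mean level of the 5 genes in 5 of the 6 groups, all but BM polysomal RNA. The order of mean levels in LY6G polysomal RNA was Cyba at 158 ± 17.7, Cybb at 50.8 ± 5.34, Ncf1 at 30.1 ± 2.85, Ncf4 at 29.9 ± 9.10 and Rac2 at 24.4 ± 5.96 CPM per kb (SD, n = 3, as for all levels below). LY6G total RNA gave the same order, with Cyba at 108 ± 15.6, Cybb at 43.2 ± 1.58, Ncf1 at 32.6 ± 5.27, Ncf4 at 27.8 ± 6.13 and Rac2 at 21.7 ± 4.46 CPM per kb. In that order Ncf1, Ncf4 and Rac2 lay within their spread of their neighbours in both fractions, Ncf1 and Rac2 did not overlap in LY6G total RNA, and Cyba and Cybb lay apart from each other and from the rest. In LY6C polysomal RNA the levels were 218 ± 87.7 for Cyba, 56.3 ± 4.08 for Cybb, 37.8 ± 9.58 for Ncf1, 29.5 ± 1.85 for Ncf4 and 23.7 ± 3.74 CPM per kb for Rac2. In LY6C total RNA they were 119 ± 35.5 for Cyba, 43.4 ± 5.58 for Cybb, 42.0 ± 10.6 for Ncf1, 30.0 ± 1.36 for Ncf4 and 21.4 ± 10.1 CPM per kb for Rac2, so that Cybb and Ncf1 were not separated by their spread. The order was another in BM. BM polysomal RNA had Ncf4 at 31.5 ± 13.6, Cyba at 28.2 ± 6.00, Ncf1 at 26.2 ± 1.23, Cybb at 8.97 ± 2.75 and Rac2 at 8.58 ± 0.885 CPM per kb, the first 3 within their spread of each other and the last 2 likewise. BM total RNA had Cyba at 16.2 ± 5.35, Ncf4 at 11.4 ± 7.38, Ncf1 at 6.83 ± 3.14, Rac2 at 6.01 ± 4.80 and Cybb at 4.67 ± 2.22 CPM per kb, and neighbours in that order were not separated by their spread.

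**Figure D1:**
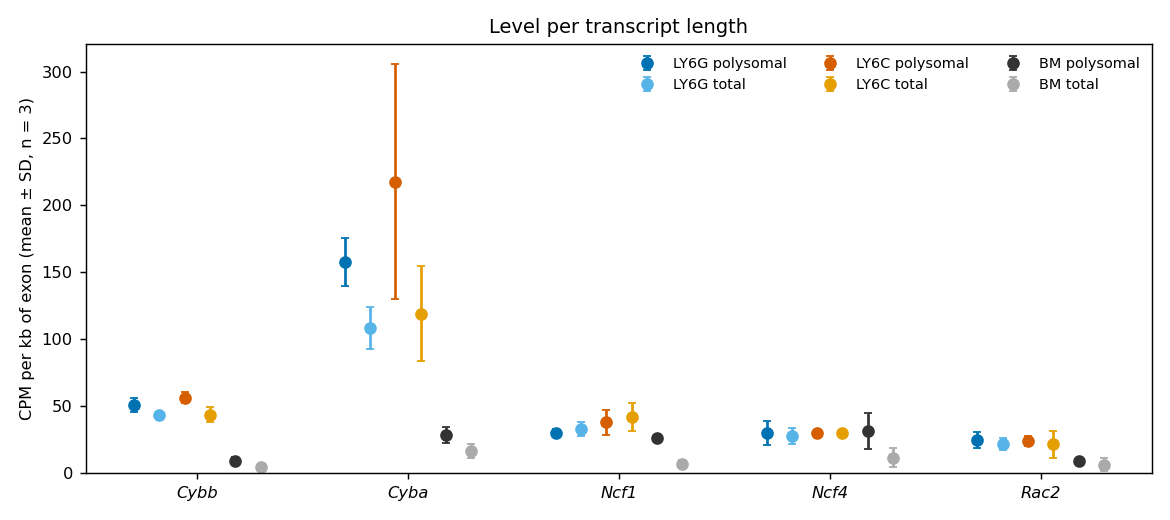
Mean level of each oxidase gene in CPM per kilobase of exon (linear axis) in the 6 groups, with bars for the SD of 3 libraries. Cyba is highest in all groups but BM polysomal RNA, where Ncf4 has 31.5 and Cyba 28.2 CPM per kb.

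Ratios of subunits per length were taken within each library. Cyba over Cybb was 3.81 ± 1.26 in LY6C polysomal RNA, 3.11 ± 0.361 in LY6G polysomal RNA and 3.24 ± 0.633 in BM polysomal RNA. In total RNA it was 2.74 ± 0.773 in LY6C, 2.51 ± 0.445 in LY6G and 3.72 ± 0.814 in BM. The mean ratio within the membrane core thus lay between 2.51 and 3.81 in all 6 groups. Ncf1 over Cybb was 0.680 ± 0.214 in LY6C polysomal RNA, 0.594 ± 0.0461 in LY6G polysomal RNA and 3.15 ± 1.09 in BM polysomal RNA. In total RNA it was 0.991 ± 0.329 in LY6C, 0.757 ± 0.126 in LY6G and 2.17 ± 2.25 in BM. In polysomal RNA the lowest BM ratio of Ncf1 to Cybb, 2.12, lay above the highest LY6C ratio, 0.924, and the highest LY6G ratio, 0.641.

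Cybb (ENSMUSG00000015340, GRCm38 chrX:9435252-9487771, minus strand), the gene of gp91phox, had 320.4, 307 and 353 CPM in LY6C polysomal RNA, against 289, 235 and 231.5 CPM in LY6C total RNA, in the order of numbers 2, 3 and 6. In LY6G cells it had 265, 294 and 327 CPM in polysomal RNA, against 241, 259.5 and 252 CPM in total RNA. Each polysomal library lay above each total library in both populations, with no overlap at TMM scaling. Scaled to protein-coding counts, the LY6C fractions overlapped, at 1319 to 1731 CPM in polysomal and 1195 to 1618 CPM in total RNA. With that scaling the LY6C log2 difference was 0.16. The log2 difference of polysomal minus total RNA was 0.38 ± 0.31 (SE) in LY6C and 0.23 ± 0.31 in LY6G, with an adjusted p of 1 in both by edgeR's quasi-likelihood test. BM had 68.1, 52.0 and 36.2 CPM of Cybb in polysomal RNA, against 12.7, 37.6 and 31.0 CPM in total RNA, in the order 1, 2 and 3. These overlapped, since polysomal library 3 lay below total library 2. The difference in BM, 0.93 ± 0.35 on the log2 scale, did not pass the test (adjusted p = 0.134, edgeR), and without BM total library 1 it was 0.55.

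Cyba (ENSMUSG00000006519, chr8:122424776-122432930, minus strand), the gene of p22phox, had 161, 187 and 330.3 CPM in LY6C polysomal RNA, against 142.5, 147 and 81.1 CPM in LY6C total RNA. LY6G cells had 165, 145 and 182 CPM in polysomal RNA, against 130.3, 108 and 98.7 CPM in total RNA. Polysomal libraries again lay above all total libraries of their population. LY6C number 6 stood apart, with the highest polysomal and the lowest total value. Its polysomal minus total difference was 2.03 on the log2 scale, against 0.18 and 0.34 for numbers 2 and 3. Over the group the difference was 0.87 ± 0.33 in LY6C, with an unadjusted p of 0.0148 and an adjusted p of 1 by edgeR, and 0.54 ± 0.33 in LY6G with an adjusted p of 1. Without LY6C polysomal library 6 the LY6C value was 0.50. In BM, Cyba had 30.8, 34.7 and 22.5 CPM in polysomal RNA, against 10.6, 21.3 and 18.6 CPM in total RNA, which did not overlap at TMM scaling. Scaled to protein-coding counts, BM polysomal library 3, at 143 CPM, lay below BM total library 2, at 170 CPM. The log2 difference in BM was 0.78 ± 0.39 and did not pass the test (adjusted p = 0.275, edgeR).

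Over the 12 sorted libraries the Pearson correlation of log2 CPM between Cybb and Cyba was 0.80, and the other 9 pairs of members lay between -0.25 and 0.47. With the group means taken out it was 0.48, as it was between Cybb and Rac2, and the other 8 pairs lay between -0.39 and 0.41. The libraries share cultures and gradients, so these correlations are a description. The promoters of Cybb and Cyba are printed here because both genes passed as higher in sorted cells than in BM in both fractions. Rac2 passed in both fractions as well, but no RefSeq promoter window was at hand for it. The promoter of Ncf1, which passed in total RNA and not in polysomal RNA, is printed for comparison. Each window runs from 250 bases before to 50 bases after the RefSeq start site (GRCm38.p6, minus strand for all 3: chrX:9469275-9469574 for Cybb, chr8:122432891-122433190 for Cyba and chr5:134229576-134229875 for Ncf1), and RefSeq windows were at hand for these 3 of the 5 genes. Capitals mark the motifs searched on both strands, none of which overlap: GAGGAA, the core of PU.1 and other Ets sites, GGGCGG, the GC box, and GAAANNGAAA, a repeat bound by interferon regulatory factors.
Cybb: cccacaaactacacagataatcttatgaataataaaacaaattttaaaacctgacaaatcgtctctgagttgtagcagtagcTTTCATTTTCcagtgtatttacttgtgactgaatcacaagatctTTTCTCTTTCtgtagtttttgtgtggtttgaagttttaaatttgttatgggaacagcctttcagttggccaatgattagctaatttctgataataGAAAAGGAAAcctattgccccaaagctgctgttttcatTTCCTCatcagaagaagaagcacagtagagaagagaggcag
Cyba: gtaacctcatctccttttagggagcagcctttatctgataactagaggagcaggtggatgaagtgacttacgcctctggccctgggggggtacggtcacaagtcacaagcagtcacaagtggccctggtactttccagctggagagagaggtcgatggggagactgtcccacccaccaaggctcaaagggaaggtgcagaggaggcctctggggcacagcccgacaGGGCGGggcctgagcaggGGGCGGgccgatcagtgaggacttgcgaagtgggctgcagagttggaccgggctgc
Ncf1: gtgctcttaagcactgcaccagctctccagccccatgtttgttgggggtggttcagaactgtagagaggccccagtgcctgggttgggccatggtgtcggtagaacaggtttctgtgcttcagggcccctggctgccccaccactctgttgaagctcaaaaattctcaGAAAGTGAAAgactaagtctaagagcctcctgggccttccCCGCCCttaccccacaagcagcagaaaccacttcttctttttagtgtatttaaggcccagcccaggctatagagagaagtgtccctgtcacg
The Cybb window held the Ets core on the opposite strand at position 10 after the start site and 3 copies of the interferon regulatory factor repeat. Those at -168 and -124 lie on the opposite strand, and the copy at -29 on the strand printed. The Cyba window held 2 GC boxes, at -24 and -6. The Ncf1 window held 1 GC box on the opposite strand at -42 and 1 repeat at -82. Of 32851 promoter windows of the same length, 28.28% held the Ets core, 35.66% the GC box and 3.443% the repeat. The G and C content was 35.3% for Cybb, 60.7% for Cyba and 54.0% for Ncf1, and no motif was common to Cybb and Cyba.

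Ncf1 (ENSMUSG00000015950, chr5:134220053-134229625, minus strand), the gene of the organizer p47phox, was the 1 member called between fractions, in BM. LY6C cells had 119.5, 179 and 117 CPM in polysomal RNA, against 123, 198 and 141 CPM in total RNA. LY6G cells had 107, 102 and 122 CPM in polysomal RNA, against 113, 105 and 141 CPM in total RNA. The polysomal value was the lower in each of the 3 numbers of both populations, but the groups overlapped. The log2 difference was -0.15 ± 0.30 in LY6C and -0.12 ± 0.30 in LY6G, with an adjusted p of 1 in both (edgeR). BM had 90.9, 99.4 and 98.0 CPM in polysomal RNA, against 38.1, 16.4 and 20.7 CPM in total RNA. The 3 polysomal values lay close together and well above the total values, which stood on 18, 10 and 10 counts. Ncf1 was higher in BM polysomal RNA by 1.96 ± 0.34 on the log2 scale, a 3.88-fold difference with an adjusted p of 0.0053 by edgeR's quasi-likelihood test. Of all genes tested in BM, 2.6% passed as higher in polysomal RNA, and their median difference was 0.55. The difference kept its call in each of the 13 alternative analyses that bear on it, with adjusted p from 0.000161 to 0.0424. Exons of Ncf1 share 408 bases with Gtf2ird2, a gene on the other strand, which averaged 2.04 CPM in BM polysomal RNA and 7.23 CPM in BM total RNA. No source used here gives the strand setting of the counting, and the part of Gtf2ird2 reads in the Ncf1 counts was not tested.

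Ncf4 (ENSMUSG00000071715, chr15:78244801-78262580, plus strand), the gene of the adaptor p40phox, had fractions that overlapped in sorted cells. It had 56.6, 58.4 and 63.8 CPM in LY6C polysomal RNA, against 57.9, 60.2 and 63.4 CPM in LY6C total RNA. In LY6G cells it had 55.97, 44.7 and 80.7 CPM in polysomal RNA, against 58.3, 42.8 and 67.4 CPM in total RNA. The number of the replicate moved the LY6G values more than the fraction did. The log2 differences were -0.02 ± 0.37 in LY6C and 0.11 ± 0.37 in LY6G, with an adjusted p of 1 in both (edgeR). BM had 94.1, 55.5 and 41.1 CPM in polysomal RNA, against 38.1, 22.9 and 8.26 CPM in total RNA. The BM groups did not overlap at TMM scaling. Scaled to protein-coding counts, BM polysomal library 3, at 261 CPM, lay below BM total library 1, at 328 CPM. The BM difference, 1.47 ± 0.42, missed the threshold with an adjusted p of 0.0575 (edgeR), and it passed without BM total library 1, at 1.94 with an adjusted p of 0.0312. Without BM polysomal library 1 it was 1.02 (adjusted p = 0.256), without BM total library 3 it was 1.01 (adjusted p = 0.2), and with median-ratio factors 1.03 (adjusted p = 0.26).

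Rac2 (ENSMUSG00000033220, chr15:78559167-78572783, minus strand), the GTPase of blood cells that switches the assembled oxidase on, had 86.2, 70.6 and 63.6 CPM in LY6C polysomal RNA, against 99.9, 60.7 and 38.1 CPM in LY6C total RNA. LY6G cells had 75.5, 57.1 and 94.0 CPM in polysomal RNA, against 82.6, 55.8 and 63.1 CPM in total RNA. All 4 groups overlapped. The log2 differences were 0.15 ± 0.42 in LY6C and 0.17 ± 0.42 in LY6G (adjusted p of 1, edgeR). BM had 29.7, 24.3 and 26.0 CPM in polysomal RNA, against 2.12, 22.9 and 31.0 CPM in total RNA, where library 1 held 1 count. The BM difference was 0.50 ± 0.50 with an adjusted p of 0.641 (edgeR), and without BM total library 1 it was -0.05. Rac1, the widely expressed relative of Rac2, was lower per length in all libraries but BM total library 1, where Rac2 over Rac1 was 0.121. Rac2 over Rac1 was 1.53 ± 0.362 in LY6G polysomal RNA, 1.37 ± 0.285 in LY6C polysomal RNA and 2.48 ± 1.20 in BM polysomal RNA, and in total RNA it was 1.61 ± 0.436 in LY6G, 1.58 ± 0.373 in LY6C and 3.07 ± 3.72 in BM.

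**Figure D2:**
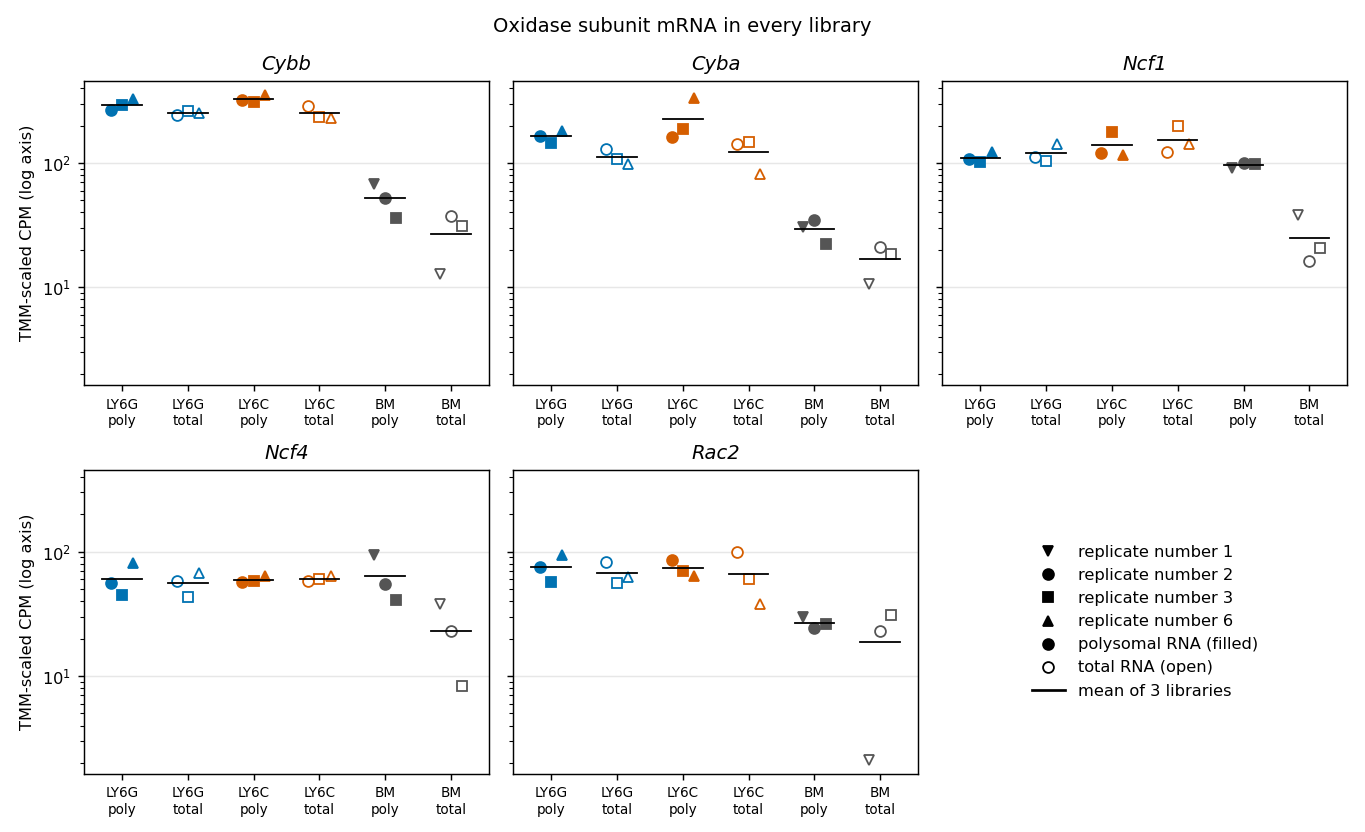
Level of each oxidase gene in CPM in each of the 18 libraries, with polysomal RNA left of total RNA in each kind of cell. Filled marks are polysomal and open marks total RNA, the marker shape gives the replicate number, and bars show the mean. At TMM scaling Cybb and Cyba stand above their total libraries in polysomal RNA of both sorted populations, and Ncf1 has 90.9 to 99.4 CPM in BM polysomal RNA and 16.4 to 38.1 CPM in BM total RNA.

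Set side by side, 0 of the 5 genes passed the test of polysomal against total RNA in LY6C and 0 of 5 in LY6G. The background was 0% of 14181 genes in each, with 433 genes in LY6C and 254 in LY6G at an unadjusted p under 0.05, and DESeq2 called 6 genes in LY6C and 4 in LY6G. Scaled to protein-coding counts, Cybb overlapped between fractions in LY6C, as given above. At TMM scaling the groups did not overlap, with polysomal RNA higher, for Cybb and Cyba in LY6C, where 3.67% of all genes showed this, and for the same pair in LY6G, where 8.52% did. Polysomal RNA was the higher in each replicate number for this pair, as for 25.2% of all genes in LY6C and 28.3% in LY6G. Ncf1 was the lower in each number, as were 17.9% of genes in LY6C and 25.3% in LY6G. The median difference over the 5 genes was 0.15 in LY6C, beside 0.01 over all genes, and 0.17 in LY6G, beside 0.00. In BM, 1 of 5 passed as higher, Ncf1. At TMM scaling Cyba, Ncf1 and Ncf4 did not overlap between BM fractions, with polysomal RNA higher, which held for 19.5% of all genes. Scaled to protein-coding counts, Cyba and Ncf4 overlapped between BM fractions and Ncf1 did not. The BM median was 0.93 over the 5 genes, beside 0.55 over all genes. Relative to that 0.55 the values were 1.40 for Ncf1, 0.91 for Ncf4, 0.37 for Cybb, 0.23 for Cyba and -0.05 for Rac2. Of all genes called in BM, 368 were higher and 113 lower in polysomal RNA, and with median-ratio scaling 67 were higher and 133 lower.

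**Figure D3:**
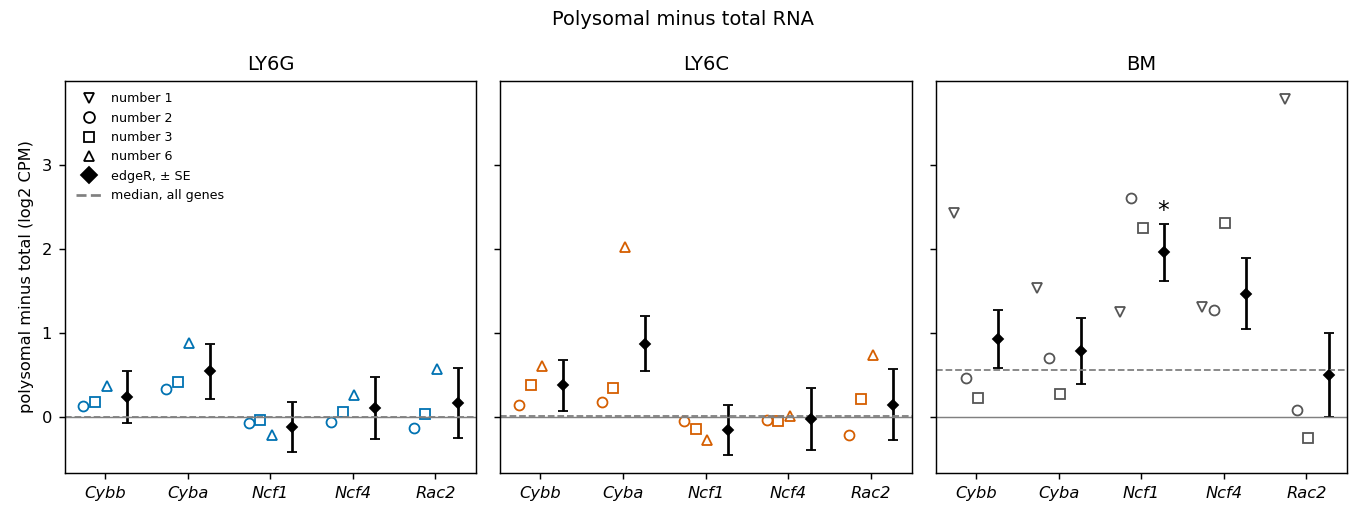
Log2 difference of polysomal minus total RNA for each oxidase gene in LY6G, LY6C and BM, with its standard error, and the median of all genes as a line. The asterisk marks an adjusted p under 0.05, which only Ncf1 in BM reached, at 1.96.

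Whether the fraction difference itself differed between kinds of cells was tested as the difference of 2 contrasts. For Ncf1 the polysomal minus total difference in LY6C, minus that in BM, was -2.11 ± 0.46 on the log2 scale (adjusted p = 0.048, edgeR). The same value for LY6G minus BM was -2.07 ± 0.46 (adjusted p = 0.047). Ncf1 was 1 of 5 genes called as lower in each of these tests, beside 0.254% of all genes for LY6C and 0.317% for LY6G, and the medians over all genes were -0.64 for LY6C and -0.65 for LY6G. For Ncf4 the values were -1.49 ± 0.56 for LY6C (adjusted p = 0.234) and -1.36 ± 0.56 for LY6G (adjusted p = 0.266). Cybb, Cyba and Rac2 lay between -0.69 and 0.09, with adjusted p from 0.538 to 1. The 2 tests share the BM libraries. Both Ncf1 calls stood near the threshold: with any library left out but BM total library 1, the adjusted p was 0.0559 to 0.126. Between LY6G and LY6C the fraction differences of the 5 genes lay between -0.33 and 0.13, and 0 of 5 passed the test (adjusted p of 1, edgeR, background 0%, 7 genes of 14181 at an unadjusted p under 0.05, 0 calls by DESeq2).

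Summed levels of neutrophil markers were higher in BM polysomal RNA. The sum of 11 neutrophil markers, S100a8, S100a9, Elane, Mpo and 7 others, was 1845 to 2703 CPM in BM polysomal RNA and 729 to 785 CPM in BM total RNA. All 11 had a positive polysomal minus total difference, with a median of 1.70, and 0 of 11 passed the test. The sum of 8 monocyte and macrophage markers was 164 to 182 CPM in BM polysomal RNA and 97.0 to 103 CPM in BM total RNA, and Fcgr1 was at 0 in BM total RNA. Of these 8, Csf1r passed as higher in BM polysomal RNA. Sums of some other cell types also lay higher in BM polysomal RNA without overlap. Those of 4 eosinophil, basophil and mast cell markers were 220.5 to 309 CPM in polysomal and 78.5 to 154 CPM in total RNA, with a median difference of 2.27. Erythroid sums were 510.2 to 746 CPM in polysomal and 309 to 419 CPM in total RNA, B cell sums 73.0 to 85.3 CPM in polysomal and 45.4 to 65.4 CPM in total RNA, and T and NK cell sums 12.6 to 14.5 CPM in polysomal and 4.13 to 6.54 CPM in total RNA. Megakaryocyte and platelet sums overlapped, at 115.6 to 180.5 CPM in polysomal and 69.8 to 136 CPM in total RNA. Stroma sums ran the other way, at 2001 to 6239 CPM in polysomal and 2721 to 6845 CPM in total RNA, lower in each replicate number. The part of these markers in the Ncf1 result was not tested.

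Between the 2 sorted populations the oxidase genes were not told apart. In total RNA the LY6G minus LY6C difference was -0.01 ± 0.31 for Cybb, -0.14 ± 0.32 for Cyba, -0.36 ± 0.30 for Ncf1, -0.11 ± 0.37 for Ncf4 and 0.02 ± 0.42 for Rac2 on the log2 scale (adjusted p of 1, edgeR). In polysomal RNA it was -0.15 ± 0.31 for Cybb, -0.47 ± 0.32 for Cyba, -0.33 ± 0.30 for Ncf1, 0.02 ± 0.37 for Ncf4 and 0.04 ± 0.42 for Rac2, with adjusted p from 0.863 to 1. Cyba in polysomal RNA was the largest of these, and without LY6C polysomal library 6 it was -0.09. The background was 0% in both fractions, with 565 genes in total RNA and 833 in polysomal RNA at an unadjusted p under 0.05 and 0 calls by DESeq2. At standard errors of 0.30 to 0.42, a difference of that size was not detectable. The sum of the neutrophil markers was 1015 to 1247 CPM in LY6G polysomal RNA and 1256 to 4252 CPM in LY6C polysomal RNA, which did not overlap, and 627 to 1111 CPM in LY6G total RNA and 550 to 3412 CPM in LY6C total RNA, which did. LY6C number 3 alone gave the 4252 and the 3412 CPM. LY6C polysomal libraries 2 and 6, at 1284 and 1256 CPM, lay just above the highest LY6G polysomal library. In total RNA 10 of the 11 markers had a lower level in LY6G, with a median difference of -0.43, and 0 of 11 passed the test. That of the monocyte and macrophage markers 1344 to 1810 CPM in LY6G and 743 to 1928 CPM in LY6C total RNA.

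Against bone marrow, both sorted populations had more of the membrane pair in both fractions. The comparison sets sorted, cultured cells against fresh unsorted marrow, so that sorting, culture and cell type cannot be told apart. In bulk RNA, fewer cells of a type and less RNA per cell cannot be told apart either. Cybb averaged 251 ± 9.19 CPM in LY6G total RNA, 252 ± 32.4 CPM in LY6C total RNA and 27.1 ± 12.9 CPM in BM total RNA. In polysomal RNA it averaged 295 ± 31.0 CPM in LY6G, 327 ± 23.7 CPM in LY6C and 52.1 ± 16.0 CPM in BM. The lowest sorted library, at 231.5 CPM, lay above the highest BM library, at 68.1 CPM. The log2 difference in total RNA was 3.19 ± 0.36 for LY6G minus BM (adjusted p = 1.95e-06, edgeR) and 3.20 ± 0.36 for LY6C minus BM (adjusted p = 2.49e-06). In polysomal RNA it was 2.501 ± 0.33 for LY6G (adjusted p = 9.17e-06) and 2.65 ± 0.33 for LY6C (adjusted p = 6.74e-06).

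Cyba averaged 112 ± 16.2 CPM in LY6G total RNA, 124 ± 36.9 CPM in LY6C total RNA and 16.8 ± 5.56 CPM in BM total RNA, again with no overlap. In polysomal RNA it averaged 164 ± 18.4 CPM in LY6G, 226 ± 91.1 CPM in LY6C and 29.3 ± 6.23 CPM in BM. The differences in total RNA were 2.73 ± 0.39 for LY6G (adjusted p = 2.87e-05, edgeR) and 2.86 ± 0.39 for LY6C (adjusted p = 2.15e-05). In polysomal RNA they were 2.49 ± 0.35 for LY6G (adjusted p = 1.84e-05) and 2.95 ± 0.35 for LY6C (adjusted p = 4.53e-06). Cyba was thus higher in sorted cells by 5.60-fold to 7.74-fold over the 4 comparisons, and Cybb by 5.66-fold to 9.20-fold. These sizes depend on the scaling. After thinning to equal protein-coding counts the log2 differences in total RNA were 1.57 in LY6G and 1.85 in LY6C for Cyba, and 2.25 in LY6G and 2.33 in LY6C for Cybb, and in polysomal RNA 2.02 in LY6G and 2.10 in LY6C for Cyba, and 1.65 in LY6G and 1.68 in LY6C for Cybb. All 8 values kept their call.

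Ncf1 passed as higher in sorted cells in total RNA and not in polysomal RNA. In total RNA it averaged 119.5 ± 19.3 CPM in LY6G, 154 ± 38.8 CPM in LY6C and 25.03 ± 11.5 CPM in BM, a difference of 2.27 ± 0.34 for LY6G (adjusted p = 5.45e-05, edgeR) and 2.64 ± 0.35 for LY6C (adjusted p = 1.54e-05). After thinning these were 1.27 for LY6G and 1.58 for LY6C, both still called. In polysomal RNA it averaged 110.2 ± 10.4 CPM in LY6G, 138.5 ± 35.1 CPM in LY6C and 96.1 ± 4.52 CPM in BM. At TMM scaling all sorted libraries still lay above all BM libraries, but the differences of 0.20 ± 0.30 for LY6G (adjusted p = 0.617) and 0.53 ± 0.30 for LY6C (adjusted p = 0.195) did not pass. Scaled to protein-coding counts, the polysomal libraries overlapped. BM library 2, at 626 CPM, then lay above LY6C library 6, at 437 CPM, and LY6G library 2, at 613 CPM. DESeq2 called the LY6C value, 0.57, with an adjusted p of 0.0209. With protein-coding totals the LY6C value was 0.16 (adjusted p = 0.733). After thinning to equal protein-coding counts the direction turned, to -0.53 in LY6C (adjusted p = 0.292) and -0.87 in LY6G (adjusted p = 0.0632). The interaction values of -2.07 and -2.11 given above are the test of this gap between fractions.

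Ncf4 averaged 56.2 ± 12.4 CPM in LY6G total RNA, 60.5 ± 2.74 CPM in LY6C total RNA and 23.1 ± 14.9 CPM in BM total RNA. The differences were 1.29 ± 0.42 for LY6G (adjusted p = 0.0243, edgeR) and 1.39 ± 0.42 for LY6C (adjusted p = 0.0172). Without BM total library 3 they were 0.83 (adjusted p = 0.154) and 0.91 (adjusted p = 0.122), without BM total library 2 they were 1.22 (adjusted p = 0.0875) and 1.30 (adjusted p = 0.0748), and without LY6G total library 6 the LY6G value was 1.16 (adjusted p = 0.0661). In polysomal RNA the 3 kinds of cells overlapped, with 60.4 ± 18.4 CPM in LY6G, 59.6 ± 3.72 CPM in LY6C and 63.5 ± 27.4 CPM in BM. The differences there were -0.08 ± 0.37 for LY6G and -0.10 ± 0.37 for LY6C (adjusted p = 0.886 for LY6G and 0.864 for LY6C).

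Rac2 averaged 67.2 ± 13.8 CPM in LY6G total RNA, 66.3 ± 31.3 CPM in LY6C total RNA and 18.7 ± 14.9 CPM in BM total RNA, differences of 1.83 ± 0.49 for LY6G (adjusted p = 0.00762, edgeR) and 1.81 ± 0.49 for LY6C (adjusted p = 0.00911). In polysomal RNA it averaged 75.5 ± 18.5 CPM in LY6G, 73.4 ± 11.6 CPM in LY6C and 26.6 ± 2.75 CPM in BM, differences of 1.501 ± 0.44 for LY6G (adjusted p = 0.0109) and 1.46 ± 0.44 for LY6C (adjusted p = 0.0152). At TMM scaling no BM library reached a sorted library in either fraction. Scaled to protein-coding counts, BM total library 3, at 258 CPM, lay above LY6C total library 6, at 197 CPM. The LY6C polysomal call was lost without BM polysomal library 1, 2 or 3, with adjusted p of 0.0524, 0.0689 and 0.0678, and with protein-coding totals (1.11, adjusted p = 0.0623). After thinning, the total RNA values were 0.683 in LY6G (adjusted p = 0.284) and 0.663 in LY6C (adjusted p = 0.32), and the polysomal values were 1.07 in LY6G (adjusted p = 0.0816) and 0.705 in LY6C (adjusted p = 0.297).

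**Figure D4:**
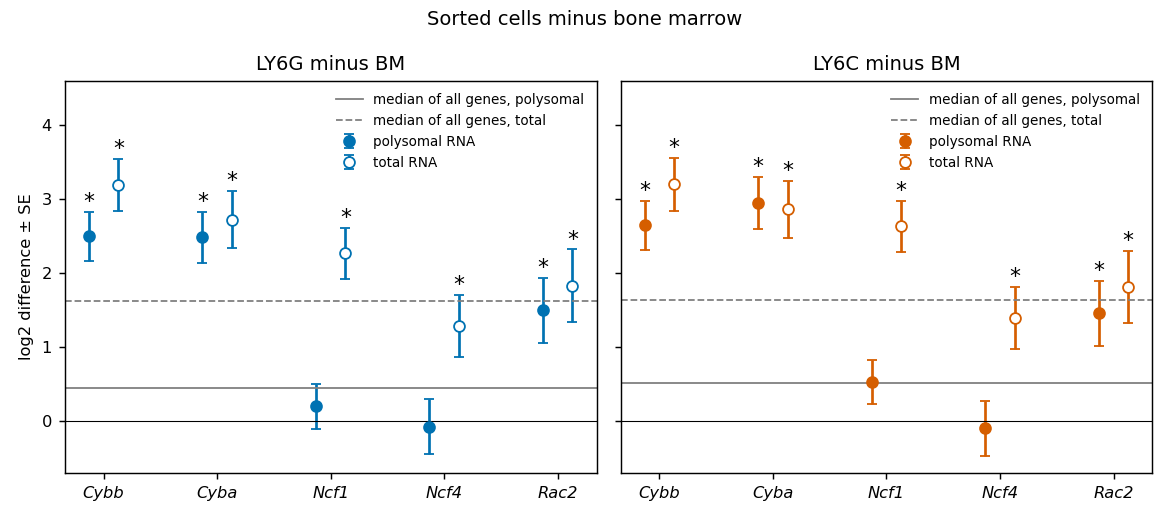
Log2 difference of LY6G minus BM and LY6C minus BM for each oxidase gene, in polysomal and in total RNA, with its standard error and the median of all genes as a line. Asterisks mark an adjusted p under 0.05. All 5 genes pass in total RNA, and Cybb, Cyba and Rac2 pass in polysomal RNA, where Ncf1 and Ncf4 lie between -0.10 and 0.53.

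In total RNA all 5 genes passed as higher in LY6G, beside 21.5% of all genes, and all 5 in LY6C, beside 20.5%. In polysomal RNA 3 of 5 passed in LY6G, beside 22.1%, and the same 3 in LY6C, beside 20.2%. At TMM scaling all 5 genes had groups without overlap in total RNA, as did 54.2% of all genes for LY6G and 48.5% for LY6C, and all but Ncf4 in polysomal RNA, as did 41.1% for LY6G and 34.7% for LY6C. Scaled to protein-coding counts, Ncf4 overlapped with BM in total RNA of both populations, and Rac2 in that of LY6C. Ncf1 then overlapped with BM in polysomal RNA of both. The median over all genes was itself displaced, by 1.63 for LY6G and 1.64 for LY6C in total RNA and by 0.45 for LY6G and 0.52 for LY6C in polysomal RNA. Relative to it, the total RNA values for LY6G were 1.56 for Cybb, 1.09 for Cyba, 0.64 for Ncf1, 0.20 for Rac2 and -0.35 for Ncf4. For LY6C they were 1.56 for Cybb, 1.22 for Cyba, 0.99 for Ncf1, 0.17 for Rac2 and -0.25 for Ncf4. In polysomal RNA they were 2.05 for Cybb, 2.03 for Cyba, 1.05 for Rac2, -0.26 for Ncf1 and -0.53 for Ncf4 in LY6G. In LY6C they were 2.13 for Cybb, 2.43 for Cyba, 0.94 for Rac2, 0.01 for Ncf1 and -0.62 for Ncf4. Cybb and Cyba thus stood above the median of all genes in all 4 comparisons, and Ncf4 below it. The place of Ncf4 in LY6C total RNA depended on the setting. It lay above the median with protein-coding totals (0.777 beside 0.720), with the compared libraries alone (1.10 beside 0.964) and after thinning (0.405 beside 0.396). The LY6G total RNA value stayed below its median in these settings. Of all genes called in total RNA, 3043 were higher and 1331 lower in LY6G, and 2913 higher and 1050 lower in LY6C. Scaled to protein-coding counts, 1893 were higher and 2018 lower in LY6G, and 1542 higher and 1746 lower in LY6C. In polysomal RNA the split was 3137 higher and 2176 lower for LY6G and 2861 higher and 1592 lower for LY6C, and with that scaling 2644 higher and 2883 lower for LY6G and 1884 higher and 2538 lower for LY6C.

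Cell type markers moved with the same comparison. Of 8 monocyte and macrophage markers, 7 passed as higher in LY6G and 6 in LY6C, in each fraction, and their sum was 743 to 2357 CPM in sorted libraries and 97.0 to 182 CPM in BM libraries. The 11 neutrophil markers gave 3 higher and 2 lower in LY6G total RNA and 1 higher and 4 lower in LY6G polysomal RNA, and 3 higher and 0 lower in LY6C total RNA and 1 higher and 1 lower in LY6C polysomal RNA. Beside these, 1331 of 14181 genes were lower in LY6G and 1050 in LY6C total RNA, and 2176 in LY6G and 1592 in LY6C polysomal RNA. Sums of erythroid markers were 0.355 to 1.58 CPM in sorted libraries and 309 to 746 CPM in BM libraries, those of B cell markers 0.174 to 5.35 CPM in sorted and 45.4 to 85.3 CPM in BM libraries, and those of stroma markers 0.428 to 4.99 CPM in sorted and 2001 to 6845 CPM in BM libraries. Epb42, an erythroid membrane protein, was at 0 in all libraries but those of BM polysomal RNA. The part of cell composition in the oxidase differences was not tested.

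The genes around the oxidase were read from 6 lists, whose counts stand beside the shares of all genes called higher than in BM: 21.5% in LY6G and 20.5% in LY6C total RNA, and 22.1% in LY6G and 20.2% in LY6C polysomal RNA. Of all 14181 genes, 1331 were called lower in LY6G and 1050 in LY6C total RNA, and 2176 in LY6G and 1592 in LY6C polysomal RNA. Among 12 partners and assembly factors, 8 were higher in LY6G and 10 in LY6C in each fraction, with 0 lower. Arhgdia, an inhibitor that holds Rac proteins in the cytosol, was higher by 2.80 in LY6G and 2.90 in LY6C total RNA and by 3.14 in LY6G and 3.20 in LY6C polysomal RNA. Prdx6, a peroxiredoxin with phospholipase activity that supports oxidase assembly, was higher by 3.89 in LY6G and 3.47 in LY6C total RNA. BM total libraries had 0 to 14.7 CPM of Prdx6. Rac1 was higher by 1.92 in LY6G and 1.82 in LY6C total RNA, and by 2.05 in LY6G and 2.19 in LY6C polysomal RNA. Cybc1, the chaperone of the gp91phox and p22phox pair, was higher in polysomal RNA, by 1.51 in LY6G (adjusted p = 0.00872, edgeR) and 1.60 in LY6C (adjusted p = 0.00722), and in total RNA its differences of 1.00 in LY6G and 1.03 in LY6C did not pass. Hvcn1, the proton channel that balances the charge moved by the oxidase, was higher in total RNA, by 1.79 in LY6G (adjusted p = 0.0456) and 1.99 in LY6C (adjusted p = 0.029), and in LY6C polysomal RNA by 1.55 (adjusted p = 0.0331). The LY6G polysomal value of Hvcn1 was 1.11 (adjusted p = 0.107). BM total RNA held 14, 0 and 1 counts of Hvcn1, at 29.6, 0 and 2.07 CPM. BM total library 1 lay above LY6G total library 6, at 25.9 CPM, so that these groups overlapped.

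Of 16 upstream signalling genes 15 were tested. In total RNA 11 were higher and 1 lower in LY6G, and 10 higher and 1 lower in LY6C, and in polysomal RNA 7 were higher and 1 lower in each. The gene lower in all 4 comparisons was Prkca, a protein kinase C. Plcg2, a phospholipase downstream of Fc receptors, was higher by 3.32 in LY6G and 3.53 in LY6C total RNA, and Pik3cg, a lipid kinase activated by chemoattractant receptors, by 2.38 in LY6G and 2.05 in LY6C polysomal RNA. BM total libraries had 3.27 to 8.26 CPM of Plcg2, which is a few counts each, and its LY6C polysomal difference was 1.44. Dock2, an activator of Rac, was higher by 1.76 in LY6G and 1.79 in LY6C polysomal RNA. Among 11 genes that supply NADPH, 5 were higher and 0 lower in total RNA of each population, 2 higher and 2 lower in LY6G polysomal RNA, and 3 higher and 0 lower in LY6C polysomal RNA, where the counts of higher genes were near the shares over all genes. Pgls and Tkt, enzymes of the pentose phosphate pathway, were those lower in LY6G polysomal RNA. Pgd, an enzyme of the pentose phosphate pathway that makes NADPH, was higher by 2.62 in LY6G and 2.89 in LY6C total RNA, and by 1.09 in LY6G and 1.42 in LY6C polysomal RNA. Of 16 genes that remove superoxide and peroxide 15 were tested, with 10 higher and 1 lower in LY6G total RNA, 9 higher and 1 lower in LY6C total RNA, 8 higher and 1 lower in LY6G polysomal RNA, and 6 higher and 1 lower in LY6C polysomal RNA. Prdx1, a peroxiredoxin, was higher by 5.08 in LY6G and 4.33 in LY6C total RNA, and Sod2, the mitochondrial superoxide dismutase, by 4.05 in LY6G and 4.03 in LY6C polysomal RNA. The gene lower in total RNA of both was Sod1, the cytosolic superoxide dismutase, and in polysomal RNA Prdx2, a peroxiredoxin abundant in red cells. Of 9 other NADPH oxidases and organizers, 1 passed the filter on low counts, Noxo1, and it was not called.

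Among 8 transcription factors known to drive oxidase genes, 4 were higher in total RNA of each population, with 1 lower in LY6G and 0 in LY6C. In polysomal RNA 5 were higher and 3 lower in LY6G, and 5 higher and 1 lower in LY6C. Over all 14181 genes, 2176 were lower in LY6G and 1592 in LY6C polysomal RNA. Cebpa was lower in both fractions of LY6G, Cebpe in LY6G polysomal RNA and Irf8 in polysomal RNA of both populations. Cebpb was higher by 4.54 in LY6G and 4.53 in LY6C total RNA, and Rela by 5.15 in LY6G and 4.86 in LY6C total RNA. BM total libraries had 0 to 2.12 CPM of Rela, at the floor of counting, and 1.64 to 20.65 CPM of Cebpb. In the better counted polysomal RNA, Rela was higher by 2.20 in LY6G and 1.70 in LY6C, and Cebpb by 3.42 in LY6G and 3.34 in LY6C. Spi1, which encodes PU.1, ran the other way from Ncf1 between fractions in BM, with a polysomal minus total difference of -1.80 ± 0.33 (adjusted p = 0.00628, edgeR). Its fraction difference was larger in LY6G than in BM by 2.20 ± 0.44 (adjusted p = 0.0304) and in LY6C than in BM by 2.07 ± 0.44 (adjusted p = 0.0462). The LY6C call was lost without BM polysomal library 1 and after thinning, where that test called 0 genes as higher. The Spi1 values themselves were not followed through the alternatives.

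In polysomal against total RNA of LY6G and of LY6C, 0 genes of the 6 lists were called. In BM, 2.6% of all genes were called higher in polysomal RNA, and the 368 higher and 113 lower genes became 67 higher and 133 lower with median-ratio factors. In the lists, 4 of 11 NADPH supply genes were higher in polysomal RNA, among them Pgd by 1.89 ± 0.43 (adjusted p = 0.022), Nadk, which makes NADP, by 1.72 ± 0.40 (adjusted p = 0.0247) and Tkt, a transketolase, by 1.39 ± 0.36 (adjusted p = 0.0403). The fourth, Me2, a malic enzyme, was at 0 in all BM total libraries. Their list's median was 1.48, beside 0.55 over all genes. Of the 15 tested signalling genes, 2 were higher, Plcg2 by 2.36 ± 0.38 (adjusted p = 0.00248) and Vav1, an activator of Rac, by 1.69 ± 0.40 (adjusted p = 0.0277), with a list median of 0.83. Of the 12 partners 1 was higher, Coro1a, an actin-binding protein that associates with p40phox, by 1.20 ± 0.33 (adjusted p = 0.0475), with a list median of 0.67. Of the 15 removal genes 1 was higher, Prdx3, a mitochondrial peroxiredoxin that was likewise at 0 in BM total RNA, with a list median of 0.85. All adjusted p are from edgeR over 14181 genes.

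Over the 12 sorted libraries the genes with the most similar pattern were taken from 3602 well-counted genes by the Pearson correlation of log2 CPM. For Cybb these were Pgam1 at 0.93, Psmb3 at 0.92 and Cab39 at 0.91, and for Cyba Atp6v1g1 at 0.97, Tuba1c at 0.97 and Psmb1 at 0.96. For Ncf1 they were Stxbp5 at 0.95, Arap3 at 0.95 and Fam160b1 at 0.94, for Ncf4 Mapk7 at 0.93, Ankrd33b at 0.93 and Rap1gap2 at 0.88, and for Rac2 Ifngr1 at 0.91, Dynll1 at 0.89 and Spi1 at 0.89. No gene was named for 2 members. Of the 50-base stretches in the transcripts, 7.445% in Ncf1, 2.39% in Cyba and 1.29% in Rac2 occur in another gene, and 0% in Cybb and Ncf4, and Rac1 was not among the genes that share a stretch with Rac2.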

How the data were processed

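Stranded, ribosomal RNA-depleted libraries of polysomal and total RNA were sequenced, per the labels' protocols. The authors deposited raw counts per gene for all 18 libraries. The submitters' processing notes name FastQC, STAR 2.5.2a, DESeq, DESeq2 and GRCm38 (mm10). The counting program, its annotation and its strand setting are not given in the sources used here. GENCODE M21 named 54809 of 54838 identifiers.

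The model was edgeR's (version 4.0.16, R 4.3.3), with 6 group means over 18 libraries, no block, filterByExpr with a minimum count of 10 (14181 genes kept), TMM factors and robust quasi-likelihood F tests in 12 comparisons. P-values were adjusted by the Benjamini-Hochberg method over all genes tested, with calls under 0.05. SEs are the log2 difference over the square root of F. A prior count of 2 entered log2 CPM. The fit was tested on simulated data. The 5 genes and all lists were chosen with earlier results of these data known. From each list at most 3 genes per comparison were named: called, at least 10 CPM in the higher group, without overlap between groups, largest difference first. Rac1, Cybc1 and Hvcn1 were named in any case, and Me2, Prdx3, the genes named as lower, Csf1r and the interaction values of Spi1 were added after their values were seen. Level per length used the union of annotated exons. Alternatives were DESeq2 1.42.0, median-ratio factors, protein-coding totals, no filter, the compared libraries alone, the replicate number as a block, and the removal of each library. Thinning to equal protein-coding counts and leaving out both LY6C total libraries of low protein-coding share were added once the data had been seen. Same-numbered libraries deviated together in sorted cells (correlations 0.27 to 0.74, all over 0.1), so the numbers pair sorted libraries. In BM the correlations were 0.00 to 0.03. BM total libraries held only 1475 to 2018 genes with 10 counts or more, so this check cannot tell whether the BM numbers pair. With the block, no call of the 5 genes changed in sorted cells. Figures were drawn with matplotlib 3.10.9.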

Additional observations from a re-analysis of the deposited data

Results flagged for a closer look

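The polysomal minus total difference of Ncf1, the p47phox gene, differed between sorted cells and bone marrow by a test of the difference itself. The difference of differences on the log2 scale was -2.11 for LY6C minus BM (adjusted p = 0.048, edgeR) and -2.07 for LY6G minus BM (adjusted p = 0.047). Ncf1 averaged 138.5 CPM in polysomal and 154 CPM in total RNA of LY6C cells, and 110.2 CPM in polysomal and 119.5 CPM in total RNA of LY6G cells, against 96.1 CPM in polysomal and 25.03 CPM in total RNA of BM. The BM total values stand on 10 to 18 counts per library, and both tests use the same BM libraries. The call held in 3 of 20 alternatives for LY6C and 3 of 19 for LY6G. The median over all genes was -0.64 for LY6C and -0.65 for LY6G, and that over the 11 neutrophil markers -1.38 for LY6C and -1.23 for LY6G, whose part in the result was not tested.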

How the results depend on the processing

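Cybb and Cyba stayed called as higher in LY6G and in LY6C than in BM, in both fractions, under every alternative run, as did Ncf1 in total RNA and Ncf1 between BM fractions. Of 5 genes called in LY6C minus BM total RNA, 3 were called with protein-coding totals, with the compared libraries alone and after thinning to equal protein-coding counts, and in LY6G minus BM 3 with protein-coding totals and after thinning. Ncf4 and Rac2 made up the loss. Ncf4 in total RNA was also lost with median-ratio factors (adjusted p = 0.0529 in LY6G and 0.0706 in LY6C) and, in LY6G, with the compared libraries alone (0.0655). Rac2 in polysomal RNA was lost after thinning in both populations and, in LY6C, with protein-coding totals. In BM, polysomal against total RNA gave 2 called genes in place of 1 with the replicate block, and 1 to 2 with a library left out. The gene added by the block was Ncf4 at 1.52 (adjusted p = 0.0103, edgeR), and whether the BM numbers pair could not be told. The difference between fraction contrasts of Ncf1, 1 call each for LY6C and LY6G against BM, gave 0 calls with median-ratio factors, protein-coding totals, no filter, the compared libraries alone and thinning, and for LY6C 0 without both LY6C total libraries of low protein-coding share. With a library left out it gave 0 to 1 call. It held under DESeq2 (-1.77 for LY6C, adjusted p = 0.00137, and -1.72 for LY6G, adjusted p = 0.00155) and the replicate block (-2.14 for LY6C, adjusted p = 0.0333, and -2.11 for LY6G, adjusted p = 0.029), and was negative throughout. The cause of these losses was not tested. Of the 19 called values of the 5 genes, the call and sign held in 207 of 265 alternatives. The 41 values not called changed sign in 85 of 630. Cyba had the highest level per length in 5 of 6 groups with either other length or scaling. The scaling applies the same factor to all genes of a library, so it cannot change their order within a library. The median of all genes in LY6C minus BM total RNA was 1.64, against 1.36 with median-ratio factors, 0.72 with protein-coding totals and 0.18 with DESeq2. Calls over all genes between BM fractions numbered 481, against 767 with the block, 200 with median-ratio factors, 199 with protein-coding totals, 145 in BM libraries alone and 11 after thinning. The LY6C interaction called 48 genes, against 81 with the block and 184 with DESeq2, and the LY6G interaction 59, against 103 and 200. Depth limits BM total RNA most, at 0.473 to 0.611 counts per CPM.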
